A study of Homo sapiens with 32 samples.

Results

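The genes described here are 41 genes of the integrated stress response and the unfolded protein response, taken by symbol from a count table of 60107 Ensembl rows for Caco-2 cells. All 41 had counts, as did 30677 rows in all. Of the 41, 39 were among the 12849 genes that passed the filter on low counts and were tested. NUPR1, a stress-induced chromatin protein, had 38 counts and VLDLR-AS1, an antisense RNA, had 64 counts over 32 libraries, and neither was tested. The genes were split by role into 4 transducers and their targets at the endoplasmic reticulum (ER) membrane, 7 transcription factors of the integrated stress response, 9 targets of ATF4 in amino acid uptake and synthesis, 6 feedback genes and effectors, 11 chaperones and folding factors, and 4 genes of ER-associated degradation.

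The integrated stress response starts when a kinase phosphorylates the translation initiation factor eIF2, which lowers protein synthesis in general while the mRNA of the transcription factor ATF4 is translated more. ATF4 then switches on genes for amino acid supply, further factors such as DDIT3 (CHOP), and PPP1R15A, which helps to remove the phosphate again. The unfolded protein response is run by 3 sensors in the ER membrane, namely EIF2AK3 (PERK, also an eIF2 kinase), ERN1 (IRE1) and ATF6, and it raises chaperones, folding enzymes and the proteins that carry misfolded clients out of the ER for degradation. Both responses are well known in intestinal epithelium, where secretory load, nutrient supply and oxygen vary.

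The study grew Caco-2, a human colon adenocarcinoma line that forms an enterocyte-like epithelium, as unedited cells (WT), as cells carrying an inducible Cas9 and an empty guide vector (e.v.), and as cl.21, a clone made with a guide against HIF1A. Each line was sampled in conventional 2D culture, in the HoxBan system without bacteria (monoculture), and in HoxBan with Faecalibacterium prausnitzii A2-165 (coculture). HoxBan is a tube of solid anaerobic YCFAG medium, holding the bacterium or not, under cells on a coverslip that receive oxygen from above. Each of these 9 groups had 3 libraries except WT in 2D, which had 4. In addition, 4 WT libraries came without replicates from media labelled YCFAinul and YCFAmuc, as a monoculture and as a culture labelled Poop in each medium. The e.v. and cl.21 cells had both been through lentiviral transduction and antibiotic selection, and cl.21 is 1 clone, so that its HIF1A edit and other traits of the clone cannot be told apart. The paper lists antibiotics in its general culture medium and none in the HoxBan medium, and it does not describe the 2D cultures used for sequencing. 2D and HoxBan also differed in vessel, medium and oxygen supply, so that these and a possible difference in antibiotics cannot be told apart either. No source says which libraries came from separate cultures, and p-values therefore measure only the spread between these libraries.

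The 28 replicated libraries held 4144373 to 6686797 counts. Transcripts of the 37 mitochondrial genes took a median of 6.05% of counts in 2D, 11.3% in monoculture and 14.9% in coculture, and 1 library of each line in 2D stood apart at 14.1% (WT replicate 12), 17.1% (e.v. replicate 26) and 15.3% (cl.21 replicate 1). All 10 epithelial markers examined were expressed, with a summed level of 3012 to 6476 TMM-scaled counts per 1e6 counts (CPM) in every library, and 3 immune, 2 fibroblast, 2 endothelial and 3 goblet markers of the 5, 4, 3 and 4 examined had a mean under 1 CPM, among them PTPRC, DCN, VWF and MUC2. The others, namely LYZ, CD68, COL1A1, PDGFRB, PECAM1 and TFF3, were expressed. Summed levels reached 44.9 CPM for the immune, 57.9 CPM for the fibroblast, 6.19 CPM for the endothelial and 40.0 CPM for the goblet markers. PLOD2, a HIF1A target, was at 14.8 to 36.7 CPM in the 9 cl.21 libraries and at 108 to 217 CPM in the 9 e.v. libraries without overlap, whereas WT spanned 32.2 to 183 CPM. HIF1A mRNA itself was counted at its 3′ end and does not check an edit elsewhere in the gene. HIF1A, PGK1 and PLOD2 were all lower in cl.21 than in e.v. in HoxBan and than in WT in 2D (adjusted p under 0.05). Of these 3 genes, 2 were lower in cl.21 than in e.v. in 2D, and 2 than in WT in HoxBan.

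Promoters of 37 of the 41 genes were found in RefSeq (GRCh38.p14, 250 bases before to 50 after the start) and were searched on both strands for exact matches to 3 known response elements. The ER stress response element, to which ATF6 binds, reads CCAAT, 9 bases of any kind, then CCACG, and it lay in 6 of the 37 promoters (16.2%, against 0.0916% of 27305 gene symbols), those of XBP1, HSPA5, HSP90B1, PDIA6, CALR and CRELD2. A shorter form, ATTGG, 1 base, CCACG, lay in 2 (5.41%, against 0.0696%), those of SDF2L1 and HERPUD1. The genes had been chosen as members of the 2 stress responses. Their higher shares, here and for the element described next, come with that choice and were not tested. The sequences below carry these elements in capitals, in either orientation, for the genes on which the results turn, and HERPUD1 is shown because it holds 1 element of each pathway, the second being the ATF4 type described next. Each runs 5′ to 3′ along the gene.
HSPA5 (chr9:125241366-125241434, minus strand): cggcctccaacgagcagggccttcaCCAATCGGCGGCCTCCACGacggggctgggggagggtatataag
HSP90B1 (chr12:103930211-103930239, plus strand): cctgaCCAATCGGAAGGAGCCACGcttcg
HSP90B1 (chr12:103930316-103930344, plus strand): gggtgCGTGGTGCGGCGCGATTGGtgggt
CALR (chr19:12938359-12938427, plus strand): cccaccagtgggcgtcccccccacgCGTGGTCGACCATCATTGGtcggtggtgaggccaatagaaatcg
HERPUD1 (chr16:56931941-56932047, plus strand): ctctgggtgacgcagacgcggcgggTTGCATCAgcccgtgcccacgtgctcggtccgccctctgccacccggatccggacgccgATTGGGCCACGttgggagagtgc

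The composite element bound by ATF4 with C/EBP partners was searched as TGATGNAA. It lay in 7 of the 37 promoters (18.9%, against 4.46% of symbols), those of ATF3, CEBPG, ASNS, SLC3A2, CHAC1, PPP1R15B and HERPUD1. The 4 sequences below were chosen because their genes behaved differently in the data described next, ASNS being the gene from which this element is best known. Stretches that reach into annotated exons are shown only around the element.
ATF3 (chr1:212565191-212565248, plus strand): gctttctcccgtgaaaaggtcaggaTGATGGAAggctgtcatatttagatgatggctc
PPP1R15B (chr1:204412012-204412064, minus strand): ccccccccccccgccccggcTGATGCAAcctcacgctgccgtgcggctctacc
CHAC1 (chr15:40953252-40953279, plus strand): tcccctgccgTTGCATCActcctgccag
ASNS (chr7:97872459-97872486, minus strand): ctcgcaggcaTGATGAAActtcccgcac
A match describes these letters only.

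The first comparison asked how these genes differed between HoxBan monoculture and 2D within each line. ER chaperones led by HSPA5, the transcription factors ATF3, DDIT3 and ATF4, and the phosphatase subunit PPP1R15A were higher in monoculture in all 3 lines, by up to 12.1-fold in the mean level, while most ATF4 targets for amino acids and most folding enzymes were not called in a single line. In edgeR's quasi-likelihood test across all 12849 genes, 9 members were higher and 3 lower in WT (backgrounds of 6.19% and 8.59% of all genes), 15 higher and 2 lower in e.v. (10.3% and 11.3%), and 15 higher and 3 lower in cl.21 (10.1% and 10%). The median log2 fold change of the 39 was 0.24 in WT, 0.34 in e.v. and 0.40 in cl.21, beside 0.01, -0.01 and -0.02 over all genes tested. In these bulk libraries, more cells expressing a gene and more RNA per cell cannot be told apart. The same 9 genes were called higher in each line (4.11% of all genes were) and 1, TRIB3, lower in each line (5.01%), whereas 19 of the 39 were called in neither direction in any single line. Over the mean of the 3 lines, a comparison of more libraries added after the data were seen, 19 genes were higher and 7 lower (backgrounds 21.4% and 23.3%). The genes called there and in no single line were HSP90B1, CALR, PDIA4 and SLC7A11, which were higher, and CEBPG and PSAT1, which were lower.

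**Figure D1:**
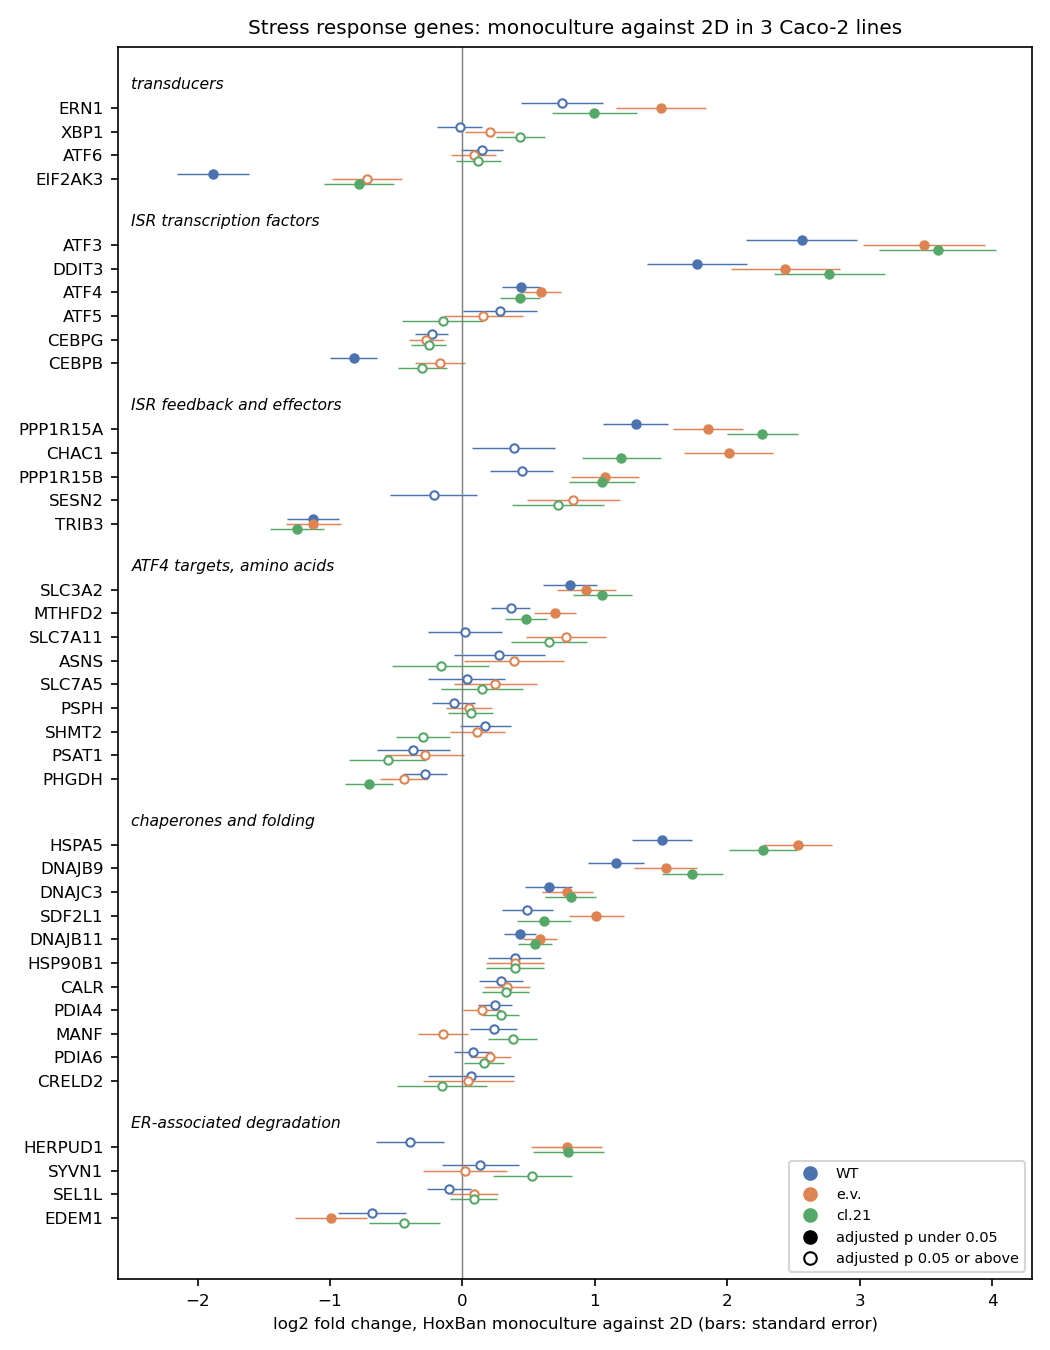
Log2 fold change between HoxBan monoculture and 2D (x axis, bars are standard errors) for the 39 tested genes by role, in WT (blue), e.v. (orange) and cl.21 (green); filled points have an adjusted p under 0.05. ATF3, DDIT3, HSPA5, PPP1R15A and DNAJB9 lie farthest to the right with filled points in all 3 lines, and TRIB3 lies to the left in all 3.

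Of the 11 chaperones and folding factors, 4 rose in WT, 5 in e.v., 5 in cl.21 and 8 over the mean of the lines, and none fell. HSPA5 (BiP, the main ER chaperone and a brake on the sensors; ENSG00000044574, chr9:125234853-125241330) had 603, 642, 725 and 698 CPM in the WT 2D libraries against 1238, 1962 and 2570 CPM in WT monoculture. Its levels were 676, 607 and 584 CPM in e.v. in 2D against 1858, 4112 and 4932 CPM in monoculture, and 647, 675 and 705 CPM in cl.21 in 2D against 3361, 3314 and 3121 CPM in monoculture. Every monoculture library thus lay above every 2D library, with tight 2D groups and a wide spread in e.v. monoculture. The mean level was 2.88-fold higher in WT, 5.84-fold in e.v. and 4.83-fold in cl.21 (log2 fold changes 1.51 ± 0.23, 2.53 ± 0.26 and 2.27 ± 0.26 SE, adjusted p 6.29e-05, 1.60e-07 and 7.94e-07).

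Co-chaperones that work with HSPA5 followed. DNAJB9 (ERdj4, which holds ERN1 in check) had 18.0 to 28.1 CPM in WT in 2D and 31.6 to 68.3 CPM in monoculture. In e.v. it had 16.0, 18.7 and 16.7 CPM in 2D against 42.8, 64.9 and 42.7 CPM, and in cl.21 25.3, 20.0 and 22.5 CPM against 79.4, 65.0 and 81.2 CPM. No line showed overlap between the conditions, and log2 fold changes were 1.16 ± 0.21, 1.53 ± 0.23 and 1.74 ± 0.23 (adjusted p 0.000466, 4.06e-05 and 6.71e-06). PNPLA8, a gene on the opposite strand over DNAJB9, held 162% of the counts of DNAJB9, and the strand setting of the counting is not given in the sources used here. It does not cover the counted 3′ end of DNAJB9. DNAJC3 (P58IPK, a co-chaperone and kinase inhibitor) rose by 0.65, 0.79 and 0.82 in log2 units and DNAJB11 (ERdj3) by 0.44, 0.59 and 0.55 in WT, e.v. and cl.21. Without 1 library, WT monoculture replicate 29, the WT values were 0.48 and 0.29 and neither was called, and DNAJC3 in e.v. was not called without e.v. monoculture replicate 25.

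SDF2L1, a partner of ERdj3, passed the test in e.v. (1.01 ± 0.21, adjusted p 0.000973) and cl.21 (0.62 ± 0.20, adjusted p 0.0325, lost without 2D replicate 1 or 2 or monoculture replicate 4 or 24) and had 0.49 ± 0.19 in WT (adjusted p 0.0900). The other chaperones and the folding enzymes had smaller values, and none of them passed in a single line. HSP90B1 (GRP94) had log2 fold changes of 0.39, 0.40 and 0.40, CALR (calreticulin) 0.29, 0.34 and 0.33, and PDIA4 0.25, 0.15 and 0.29 in WT, e.v. and cl.21. Over the mean of the lines HSP90B1 (0.40 ± 0.12, adjusted p 0.0105), CALR (0.32 ± 0.10, adjusted p 0.0106) and PDIA4 (0.23 ± 0.08, adjusted p 0.0214) were called. The call of PDIA4 was lost without cl.21 2D replicate 1 or WT monoculture replicate 29 (adjusted p up to 0.0610) and, with that of CALR, without the high-mitochondrial 2D library of each line (adjusted p 0.110 and 0.0646). PDIA6, CRELD2 and MANF lay between -0.15 and 0.38 in the single lines and were not called over their mean. Of the 6 genes whose promoters held the full ER stress response element, HSPA5 was thus called in every line, HSP90B1 and CALR over the mean of the lines, and XBP1, PDIA6 and CRELD2 in neither.

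Among the 6 tested transcription factors, 3 were higher in each line. ATF3, a bZIP factor induced by many stresses (ENSG00000162772, chr1:212565334-212620777), had 3.16 to 9.35 CPM in WT in 2D and 9.99, 41.5 and 40.7 CPM in monoculture. It had 5.26, 6.84 and 3.67 CPM in e.v. in 2D and 26.5, 66.5 and 86.6 CPM in monoculture, and 7.77, 8.74 and 4.26 CPM in cl.21 in 2D and 84.6, 75.0 and 91.5 CPM in monoculture. The lowest WT monoculture library, replicate 16, was only just above the highest WT 2D library, and the groups were far apart in the other lines. These levels gave the largest log2 fold changes of the 39 genes in every line, 2.56 ± 0.42, 3.48 ± 0.46 and 3.59 ± 0.44 (adjusted p 0.000144, 7.25e-06 and 2.78e-06).

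DDIT3 (CHOP, a pro-apoptotic partner of C/EBP factors; ENSG00000175197, chr12:57516588-57521737) had 17.1 to 24.9 CPM in the 4 WT 2D libraries and 33.1, 110 and 67.0 CPM in WT monoculture. Its levels rose from 17.9, 26.9 and 21.9 CPM to 42.6, 139 and 185 CPM in e.v. and from 17.1, 22.3 and 18.0 CPM to 148, 58.5 and 182 CPM in cl.21. The monoculture libraries of every line spread widely and yet lay above all 2D libraries, with log2 fold changes of 1.77 ± 0.38, 2.44 ± 0.41 and 2.77 ± 0.42 (adjusted p 0.00191, 0.000142 and 3.84e-05). MARS1, on the opposite strand, covers the counted 3′ end of DDIT3 and held 107% of its counts, and without a stated strand setting reads of the pair cannot be told apart.

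ATF4, the central factor of the integrated stress response (ENSG00000128272, chr22:39519695-39522685), moved much less at the mRNA level. It had 247, 246, 256 and 297 CPM in WT in 2D and 362, 372 and 346 CPM in monoculture, 264, 244 and 273 against 290, 425 and 477 CPM in e.v., and 228, 247 and 278 against 321, 313 and 385 CPM in cl.21. The groups did not overlap in any line and the log2 fold changes were 0.44 ± 0.14, 0.59 ± 0.15 and 0.43 ± 0.15 (adjusted p 0.0347, 0.00640 and 0.0449). The call was lost without any 1 of 6 of the 7 WT libraries (the exception being 2D replicate 27), without e.v. monoculture replicate 25, and without cl.21 2D replicates 1 or 2 or monoculture replicates 4 or 24, with adjusted p up to 0.100, 0.0544 and 0.225.

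CEBPB, a C/EBP partner of ATF4, was lower in WT monoculture, with 97.2, 80.5, 95.6 and 104 CPM in 2D and 59.2, 53.5 and 49.3 CPM in monoculture (-0.82 ± 0.18, adjusted p 0.00229). In e.v. and cl.21 it had log2 fold changes of -0.17 and -0.30 that did not pass. CEBPG and ATF5 passed in no single line, with values between -0.27 and 0.28, and CEBPG was lower over their mean (-0.25 ± 0.08, adjusted p 0.00804). NUPR1 reached at most 1.38 CPM in a replicated library.

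**Figure D2:**
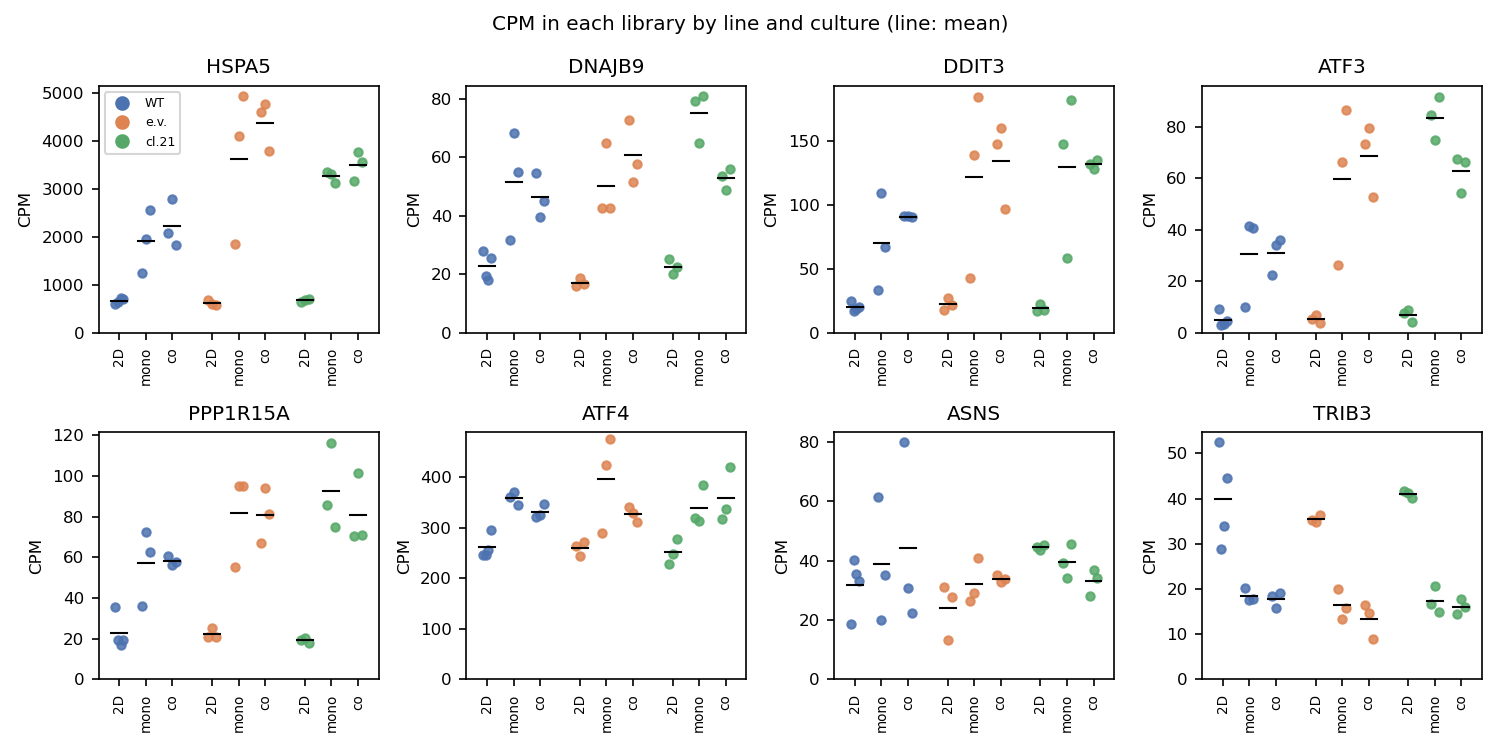
Level in CPM (y axis, linear from 0) of 8 genes in each replicated library, by line (colour) and culture condition (x axis), with the group mean as a black line. HSPA5, DNAJB9, DDIT3, ATF3, PPP1R15A and ATF4 lie above the 2D libraries in monoculture, TRIB3 lies below, and ASNS overlaps in all 3 lines.

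The feedback genes and effectors split. PPP1R15A (GADD34, the inducible subunit that dephosphorylates eIF2; ENSG00000087074, chr19:48872392-48876057) had 35.4, 19.1, 16.9 and 19.0 CPM in WT in 2D against 36.0, 72.5 and 62.3 CPM in monoculture. It had 20.8, 25.2 and 20.9 CPM against 55.1, 95.0 and 94.8 CPM in e.v., and 19.2, 20.5 and 17.7 CPM against 85.7, 116 and 75.0 CPM in cl.21. WT monoculture replicate 16 barely exceeded WT 2D replicate 5, and the other libraries were well separated, with log2 fold changes of 1.31 ± 0.24, 1.85 ± 0.27 and 2.26 ± 0.27 (adjusted p 0.000566, 1.98e-05 and 1.72e-06).

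PPP1R15B, the constitutive subunit of the same phosphatase, rose in e.v. (1.08 ± 0.25, adjusted p 0.00321) and cl.21 (1.05 ± 0.25, adjusted p 0.00385) and had 0.45 ± 0.24 in WT (adjusted p 0.218). CHAC1, a glutathione-degrading enzyme downstream of ATF4 and DDIT3, rose from 4.53, 3.84 and 2.17 CPM to 8.08, 15.1 and 20.1 CPM in e.v. and from 12.8, 8.34 and 8.98 CPM to 20.4, 27.8 and 21.4 CPM in cl.21 (2.01 ± 0.34 and 1.20 ± 0.30, adjusted p 0.000130 and 0.00503). In WT the CHAC1 libraries overlapped, with 3.27 to 7.52 CPM in 2D and 6.18 to 9.16 CPM in monoculture. SESN2, a leucine sensor and stress-induced inhibitor of mTORC1, passed in no line.

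TRIB3, a pseudokinase induced by ATF4 and DDIT3 that restrains both (ENSG00000101255, chr20:362835-397559), went the other way. It had 52.5, 28.9, 33.9 and 44.6 CPM in WT in 2D and 20.2, 17.4 and 17.7 CPM in monoculture. In e.v. it fell from 35.3, 34.9 and 36.4 CPM to 20.0, 13.4 and 15.8 CPM, and in cl.21 from 41.7, 41.3 and 40.0 CPM to 16.6, 20.6 and 14.8 CPM. No monoculture library reached a 2D library of its line, and the log2 fold changes of -1.13 ± 0.20, -1.13 ± 0.21 and -1.25 ± 0.20 (adjusted p 0.000256, 0.000325 and 9.37e-05) were called in every setting that left out 1 library.

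Of the 9 ATF4 targets in amino acid supply, 1 rose in WT, 2 in e.v. and 2 in cl.21, and 1 fell in cl.21. SLC3A2, the heavy chain of several amino acid transporters, was called in all lines, with 86.5 to 109 CPM in WT in 2D against 198, 150 and 172 CPM in monoculture, 84.0 to 105 CPM against 231, 167 and 155 CPM in e.v., and 80.5 to 116 CPM against 174, 259 and 159 CPM in cl.21 (0.81 ± 0.20, 0.94 ± 0.22 and 1.06 ± 0.22, adjusted p 0.00753, 0.00329 and 0.00119). Its light chains did not pass in a single line, with SLC7A5 (LAT1) at 0.03, 0.25 and 0.15 and SLC7A11 (xCT, the cystine transporter) at 0.02, 0.78 and 0.65 log2 units. Over the mean of the lines SLC7A11 was higher (0.48 ± 0.17, adjusted p 0.0193, and 0.0514 without WT monoculture replicate 16). MTHFD2, a mitochondrial folate enzyme, rose in e.v. (0.70 ± 0.16, adjusted p 0.00254) and in cl.21 (0.48 ± 0.16, adjusted p 0.0334, lost without 2D replicate 2 or 31 or monoculture replicate 7 or 24) and had 0.37 ± 0.15 in WT.

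ASNS (asparagine synthetase), the usual readout of ATF4 activity, overlapped between conditions in every line. It ranged from 18.7 to 40.3 CPM in WT in 2D and from 20.0 to 61.4 CPM in WT monoculture, from 13.2 to 31.2 and from 26.3 to 40.8 CPM in e.v., and from 43.7 to 45.4 and from 34.0 to 45.8 CPM in cl.21, with log2 fold changes of 0.28 ± 0.34, 0.39 ± 0.38 and -0.17 ± 0.36. The serine synthesis enzymes were level or lower. PHGDH, the first of that pathway, fell in cl.21 (-0.71 ± 0.18, adjusted p 0.00583) and had -0.28 and -0.44 in WT and e.v., PSAT1 had -0.37, -0.29 and -0.57 with a mean of -0.41 ± 0.17 (adjusted p 0.0493, lost without any 1 of 13 of the 19 libraries), and PSPH and SHMT2 lay between -0.30 and 0.17. Of the 7 genes with an ATF4-type element in the promoter, ATF3 and SLC3A2 were thus called higher in 3 lines, CHAC1, PPP1R15B and HERPUD1 in e.v. and cl.21, and ASNS and CEBPG in none, CEBPG being lower over their mean.

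The transducers showed 1 gene in each direction. ERN1, the sensor kinase and RNase that splices XBP1 mRNA, had 6.34 to 8.25 CPM in WT in 2D against 6.18, 17.0 and 14.7 CPM in monoculture, 4.34 to 6.34 CPM against 9.09, 20.4 and 18.4 CPM in e.v., and 5.02 to 10.2 CPM against 16.4, 11.1 and 18.2 CPM in cl.21. It passed in e.v. (1.50 ± 0.34, adjusted p 0.00229) and cl.21 (1.00 ± 0.32, adjusted p 0.0292) and not in WT (0.75 ± 0.31, adjusted p 0.106), where 1 monoculture library, replicate 16, lay below the 2D libraries. Without that library the WT call was made, and the cl.21 call was lost without 2D replicate 2 or 31 or monoculture replicate 4 or 24 (adjusted p up to 0.140).

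EIF2AK3 (PERK; ENSG00000172071, chr2:88556741-88627576) had 20.7, 23.4, 20.1 and 19.8 CPM in WT in 2D and 5.81, 3.30 and 7.94 CPM in monoculture. It had 20.1, 24.0 and 16.9 CPM in e.v. in 2D and 12.7, 10.4 and 14.4 CPM in monoculture, and 17.8, 16.6 and 18.1 CPM in cl.21 in 2D and 9.81, 11.1 and 9.75 CPM in monoculture. All monoculture libraries lay below the 2D libraries of their line, and the log2 fold changes were -1.89 ± 0.27 in WT (adjusted p 3.52e-05), -0.72 ± 0.26 in e.v. (adjusted p 0.0524) and -0.78 ± 0.27 in cl.21 (adjusted p 0.0379, lost without any 1 of the 6 libraries). ATF6 had 38.6 to 53.4 CPM in 2D and 42.4 to 60.6 CPM in monoculture, and XBP1 84.5 to 129 and 99.0 to 154 CPM, with no call in any line. Gene-level counts do not separate spliced from unspliced XBP1 mRNA.

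Of the 4 genes of ER-associated degradation, none was called in WT and HERPUD1 was higher in e.v. and cl.21. HERPUD1 (an ER membrane scaffold of the degradation complex; ENSG00000051108, chr16:56932048-56944863) had 95.2, 74.3, 84.7 and 73.4 CPM in WT in 2D and 49.2, 66.9 and 73.3 CPM in monoculture, 72.3, 73.1 and 76.1 against 64.4, 150 and 173 CPM in e.v., and 81.6, 75.4 and 77.2 against 137, 86.3 and 183 CPM in cl.21. In e.v. 1 monoculture library, replicate 11, lay below the 2D libraries, and in WT all 3 lay below them. Log2 fold changes were -0.40 ± 0.25 (adjusted p 0.321), 0.79 ± 0.27 (adjusted p 0.0352) and 0.80 ± 0.27 (adjusted p 0.0338), and both calls were lost without any 1 of 5 of the 6 libraries (adjusted p up to 0.2060 in e.v. and 0.2495 in cl.21), the exceptions being e.v. monoculture replicate 11 and cl.21 monoculture replicate 7. Over the mean of the lines it had 0.40 ± 0.15 (adjusted p 0.0336), lost without any 1 of 10 of the 19 libraries. EDEM1, a lectin that marks misfolded glycoproteins, fell in e.v. (-0.99 ± 0.27, adjusted p 0.00997) and had -0.68 and -0.44 in WT and cl.21. SEL1L and SYVN1, the core of the membrane ligase, were not called, and the 3′ end of SYVN1 is shared with FAU on the same strand.

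Within monoculture, the order of the libraries of a line was counted by role. The library with the smallest mitochondrial share of each line was WT replicate 16 (6.36%), e.v. replicate 11 (8.52%) and cl.21 replicate 7 (7.91%), where the other 6 libraries had 10.7% to 23.3%. Over all 12849 genes these 3 libraries were the lowest of their 3 in 37.3%, 38.3% and 39.6% and the highest in 33.3%, 39.1% and 41.3%. Over the 39 members they were lowest in 21, 21 and 16 and highest in 11, 14 and 18. In the 15 genes called higher in at least 2 lines they were lowest in 11, 12 and 9 and highest in 2, 2 and 4, whereas in the 9 ATF4 targets for amino acids they were lowest in 1, 2 and 2 and highest in 6, 6 and 7. These counts describe 1 library a line and were not tested. The part of the mitochondrial share in the comparison with 2D was examined by adding it to the fit, which gave 10 genes higher in WT, 14 in e.v. and 16 in cl.21 (9.77%, 13.5% and 11.6% of all genes), and HERPUD1 in e.v. was then not called (0.49).

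Other genes of the same pathways, outside the 41, were examined list by list, beside the shares of all genes called higher (6.19%, 10.3% and 10.1%) and lower (8.59%, 11.3% and 10%) in WT, e.v. and cl.21. Of 29 tested further ATF4 targets, 2 were higher and 1 lower in WT, 3 and 4 in e.v., and 5 and 2 in cl.21, which in WT and e.v. is near those shares or below them. GDF15, a secreted stress cytokine, rose by 1.63 ± 0.25, 2.24 ± 0.28 and 1.99 ± 0.28, and DDIT4 (REDD1, an inhibitor of mTORC1) by 1.85 ± 0.41 in e.v. and 1.62 ± 0.41 in cl.21. The amino acid transporter SLC38A2 fell by 0.91, 0.70 and 0.70 in the 3 lines. None of 18 cytosolic tRNA synthetases, which are also ATF4 targets in part, was higher, and AARS1 was lower in cl.21 by 0.48.

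Among 36 tested further ER folding and translocation genes, 2 were higher and 1 lower in WT, 8 and 0 in e.v., and 9 and 0 in cl.21. SSR3, a subunit of the translocon-associated complex, rose by 0.63 ± 0.12, 0.95 ± 0.13 and 0.66 ± 0.13, and the HSP70 relative HSPA13 by 0.70 in e.v. and 0.78 in cl.21. Of 21 further degradation genes, 2 were higher and 1 lower in WT, 1 and 2 in e.v., and 1 and 0 in cl.21, with SELENOS higher by 0.44, 0.50 and 0.50 in the 3 lines. None of 15 cytosolic heat shock genes was higher in any line, and DNAJB1 was lower in WT by 0.68. Of the 10 epithelial markers, CDX2 was lower in e.v. and cl.21 by 0.83 and 0.92, and its part in the results was not tested. Of 11 mitochondrial proteostasis genes GRPEL1 was higher and LONP1 lower in both e.v. and cl.21. Of 11 genes of the eIF2 machinery 2, 3 and 2 were higher, EIF2S1 (eIF2 alpha) in all lines by 0.59, 0.52 and 0.54.

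The second comparison asked what F. prausnitzii added in HoxBan, as the mean of the coculture effects in the 3 lines. HSP90B1, an ER chaperone of the HSP90 family, was higher with the bacterium, and CHAC1 and CEBPB were lower, so that 1 of 39 genes was called higher (background 0.817%) and 2 lower (1.18%). The median log2 fold change of the 39 was -0.04, beside -0.02 over all genes, and the fold change was positive for 18 of the 39 and for 47.5% of all genes. By role, 9 of 11 chaperones and none of the 5 feedback genes had a positive value, as did 17 of 18 tRNA synthetases, 11 of 11 mitochondrial proteostasis genes, 11 of 11 genes of the eIF2 machinery and 12 of 15 cytosolic heat shock genes outside the 41. HSP90B1 (ENSG00000166598, chr12:103930107-103953645) had 1181, 1518 and 1974 CPM in WT monoculture and 1802, 2792 and 1937 CPM in coculture, 1479, 1650 and 2509 against 1864, 3264 and 3085 CPM in e.v., and 1662, 1639 and 1625 against 2415, 3062 and 2101 CPM in cl.21. Only in cl.21 were the 2 conditions without overlap, and the difference of this behaviour between lines was not tested. The mean log2 fold change was 0.57 ± 0.13 (adjusted p 0.0219).

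CHAC1 had 6.18, 6.83 and 9.16 CPM in WT monoculture against 5.31, 3.02 and 3.01 CPM in coculture, 8.08, 15.1 and 20.1 against 14.0, 9.25 and 10.6 CPM in e.v., and 20.4, 27.8 and 21.4 against 8.52, 13.2 and 9.45 CPM in cl.21 (mean -0.79 ± 0.19, adjusted p 0.0299). The groups overlapped in e.v. and not in WT or cl.21. CEBPB had 59.2, 53.5 and 49.3 CPM against 32.3, 36.0 and 49.6 CPM in WT, 55.1, 60.7 and 68.6 against 59.8, 44.6 and 33.2 CPM in e.v., and 68.2, 57.8 and 92.6 against 51.7, 48.0 and 43.0 CPM in cl.21 (-0.48 ± 0.11, adjusted p 0.0251). Leaving out 1 library ended the call of HSP90B1 for 5 of 18 libraries, of CHAC1 for 4 and of CEBPB for 7, with adjusted p up to 0.0706, 0.0858 and 0.0706. E.v. coculture replicates 18 and 22 and WT coculture replicate 20 did so for all 3 genes, WT monoculture replicate 16 and cl.21 coculture replicate 21 for HSP90B1 and CEBPB, e.v. monoculture replicate 15 for CHAC1, and WT coculture replicate 3 and cl.21 monoculture replicate 24 for CEBPB. The median mitochondrial share was higher in coculture than in monoculture (14.9% against 11.3%), with overlapping ranges of 7.79% to 23.6% and 6.36% to 23.3%. With the mitochondrial share in the fit 4 genes were higher and 5 lower, while the shares of all genes called rose to 5.24% and 5.77%.

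**Figure D3:**
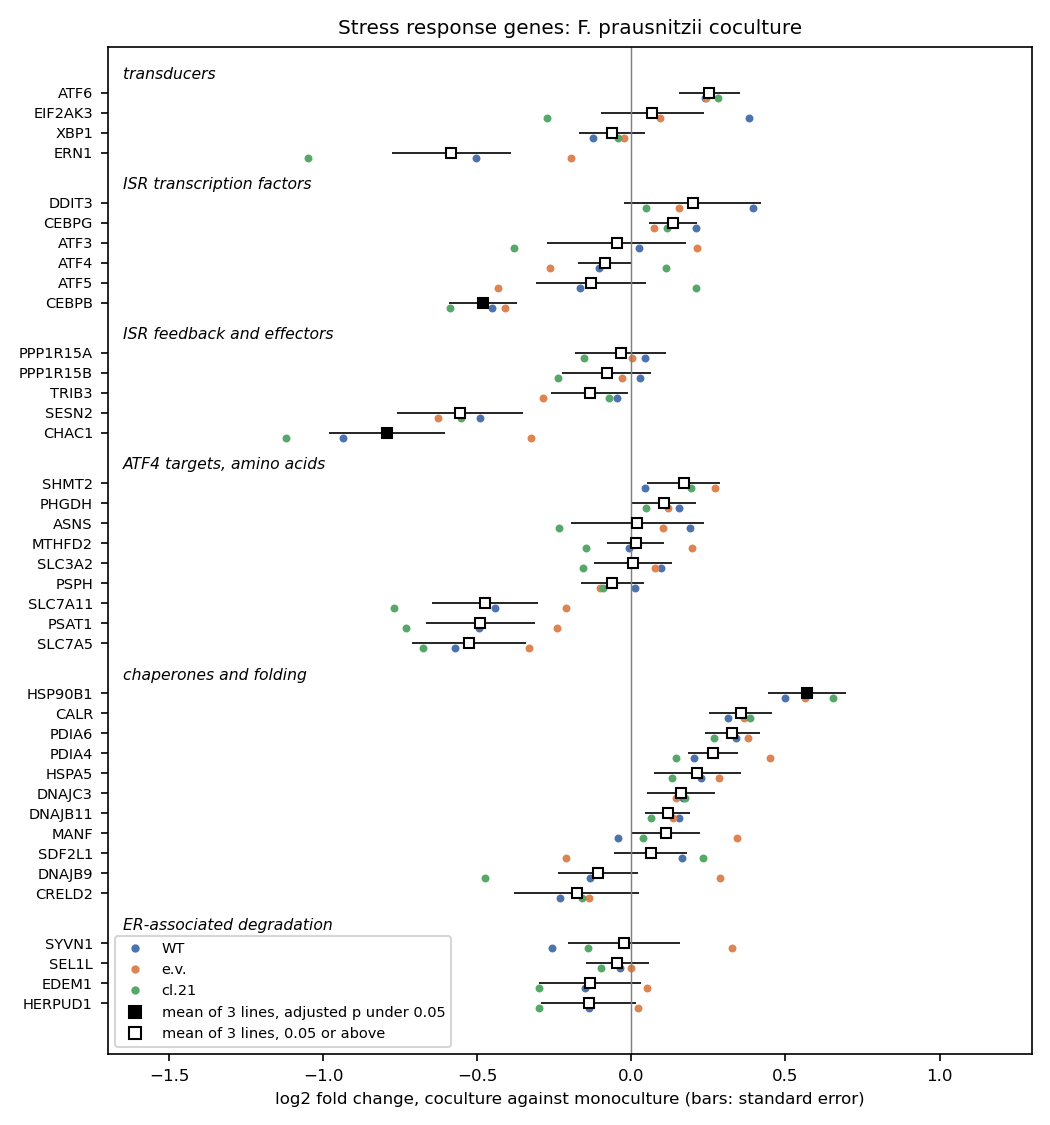
Log2 fold change between F. prausnitzii coculture and monoculture (x axis) for the 39 genes by role: squares with standard error bars are the mean of the 3 lines, filled where the adjusted p is under 0.05, and coloured points are the single lines. HSP90B1 is filled on the right, and CHAC1 and CEBPB on the left.

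Other ER proteins came close without passing, PDIA6 at 0.33 ± 0.09 (adjusted p 0.0514), CALR at 0.35 ± 0.10 (adjusted p 0.0598) and PDIA4 at 0.27 ± 0.08 (adjusted p 0.0776). SLC7A5, PSAT1 and SLC7A11, ATF4 targets, had -0.53, -0.49 and -0.48 (adjusted p 0.112, 0.120 and 0.124). The genes that stood out between monoculture and 2D had small values here, HSPA5 0.21, DDIT3 0.20, ATF3 -0.05, ATF4 -0.09, PPP1R15A -0.04 and TRIB3 -0.14. In the separate tests of WT, e.v. and cl.21, 0 of the 39 genes were called, as were 0 of all genes (background 0%), while 555, 791 and 908 of all genes had an unadjusted p under 0.05, and DESeq2 called 0 of the 39 too. Of the wider lists, SIL1, the exchange factor of HSPA5, was higher in coculture (0.54 ± 0.09, adjusted p 0.00445), as were EIF2A, EPRS1, LARS1 and the mitochondrial chaperonin HSPD1, and the ER ubiquitin ligase RNF139 was lower.

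The third comparison set the lines against each other, e.v. and cl.21 sharing the WT libraries as their reference. In 2D few genes were called between lines, with 0 of 39 for e.v. against WT (0.809% of all genes were higher and 0.467% lower) and 0 for cl.21 against WT (0.677% and 0.786%), and DESeq2 called 0 as well. CHAC1 was the 1 gene higher in cl.21 than in e.v. in 2D (1.50 ± 0.34, adjusted p 0.0191, background 0.537%), a call lost without cl.21 replicate 1, e.v. replicate 26 or e.v. replicate 32 (adjusted p up to 0.161). Without a test, every cl.21 library lay above every e.v. library in 2D for 13 of the 39 genes (11.5% of all genes) and below for 1 (10%). Of the 9 ATF4 targets for amino acids, 8 had a positive log2 fold change in cl.21 against e.v. (median 0.38, beside -0.00082 over all genes) and none in e.v. against WT (median -0.24, beside -0.0058), both comparisons sharing the e.v. libraries. SLC7A11 at 0.90 ± 0.30 (adjusted p 0.208) and ASNS at 0.88 ± 0.37 (adjusted p 0.438) had the highest values of the 9 in cl.21 against e.v.

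In HoxBan, averaged over monoculture and coculture, e.v. had 6 genes higher than WT and 1 lower (backgrounds 6.09% and 4.9%), and cl.21 had 10 higher and 0 lower (6.62% and 4.73%). HERPUD1 was higher by 1.11 ± 0.19 in e.v. and 1.03 ± 0.19 in cl.21 (adjusted p 0.000461 and 0.000950), with 50.3, 54.1 and 66.2 CPM in WT coculture against 166, 133 and 91.3 CPM in e.v. and 119, 110 and 95.2 CPM in cl.21 coculture, where no WT library reached the others. In monoculture e.v. overlapped WT, with 64.4 to 173 CPM beside 49.2 to 73.3 CPM, and cl.21 did not, with 86.3 to 183 CPM. CHAC1 was higher by 1.26 ± 0.24 and 1.55 ± 0.24, HSPA5 by 0.95 ± 0.17 and 0.72 ± 0.17, ATF3 by 1.06 ± 0.28 and 1.26 ± 0.28, and PPP1R15B by 0.75 ± 0.18 and 0.59 ± 0.18 in e.v. and cl.21. In coculture HSPA5 had 2073, 2780 and 1833 CPM in WT against 4604, 4765 and 3783 CPM in e.v. and 3157, 3775 and 3559 CPM in cl.21, without overlap with WT. In monoculture the lowest e.v. library, at 1858 CPM, lay within the WT range of 1238 to 2570 CPM, and cl.21 lay above it at 3121 to 3361 CPM. Every e.v. library was above every WT library for 1 of the 39 genes in monoculture (6.7% of all genes) and for 11 in coculture (9.48%), and every cl.21 library for 10 (9.95%) and 8 (7.12%).

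EIF2AK3 was also higher in e.v. than in WT (0.97 ± 0.20, adjusted p 0.00317), and PHGDH was lower (-0.39 ± 0.13, adjusted p 0.0478, lost without any 1 of 8 of the 12 libraries). Without e.v. monoculture replicate 11, 10 genes were higher in e.v. than in WT, DDIT3, ERN1, PPP1R15A and SESN2 being added. The share of all genes called without that library was not counted. In cl.21 the further genes higher than in WT were SLC7A11 (0.82), DNAJC3 (0.67), PPP1R15A (0.60), MANF (0.44) and DNAJB11 (0.34). Of these, PPP1R15A and PPP1R15B lost the call without any 1 of 6 of the 12 libraries (adjusted p up to 0.0988 and 0.117), MANF without any 1 of 5 and DNAJB11 without WT monoculture replicate 16 or cl.21 monoculture replicate 24, and ATF3 in e.v. lost it without e.v. monoculture replicate 25 (adjusted p 0.0627). In 2D, where none was called, every cl.21 library also lay above every WT library for CHAC1, DNAJC3 and DNAJB11. DNAJC3 had 124 to 134 CPM there beside 78.2 to 97.6 CPM in WT, and DNAJB11 168 to 172 beside 127 to 153 CPM. The other genes called higher in cl.21 than in WT overlapped in 2D. Among all tested members, 4 lay wholly above WT in 2D, these and ASNS, and 3 lay wholly below. The share of all genes without overlap was not counted for this pair. These separations therefore have no background to be set against. Between cl.21 and e.v. in HoxBan, DNAJC3 was the 1 gene called (0.48 ± 0.14, adjusted p 0.0320, background 2.84% higher and 2.72% lower), and it was lost without any 1 of 8 of the 12 libraries. In 2D, e.v. had 83 to 108 CPM of DNAJC3, below every cl.21 library and without a call.

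**Figure D4:**
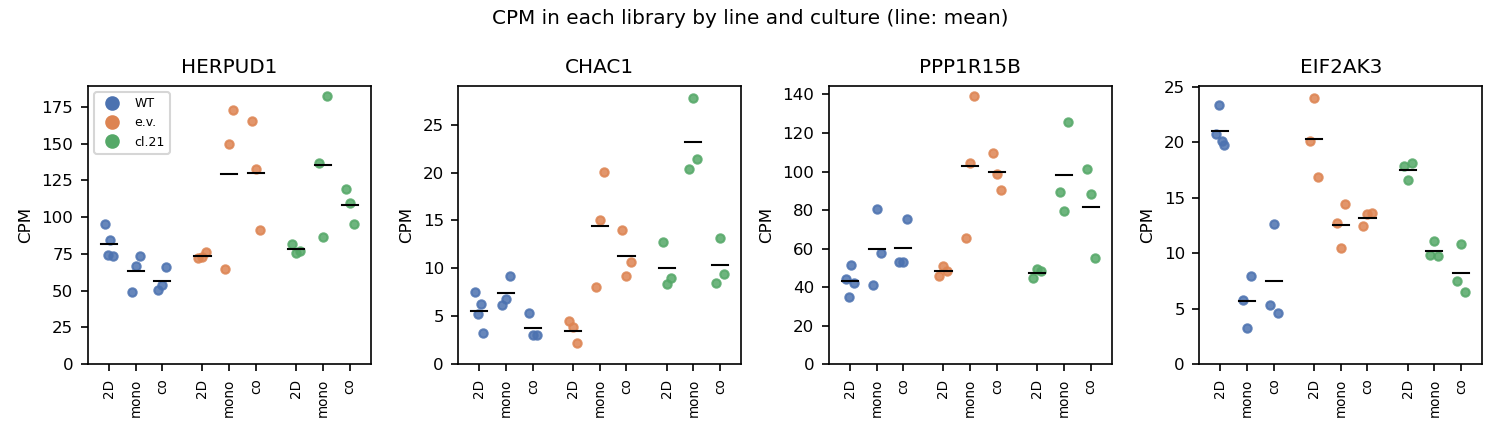
Level in CPM (y axis, linear from 0) of HERPUD1, CHAC1, PPP1R15B and EIF2AK3 in each replicated library by line (colour) and culture condition (x axis), with the group mean as a black line. HERPUD1 and CHAC1 differ between WT and the other lines in HoxBan, and the mean of EIF2AK3 in HoxBan is lowest in WT.

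Whether the HoxBan response itself differed between lines was tested as an interaction. For the monoculture response, 0 of 39 genes were called between cl.21 and e.v., e.v. and WT, or cl.21 and WT, as were 0 of all genes (background 0%), with 180, 439 and 531 of all genes at an unadjusted p under 0.05 and 0 of the 39 called by DESeq2. With the mean of monoculture and coculture against 2D, 0 were called by edgeR (725 and 598 of all genes at an unadjusted p under 0.05), and DESeq2 called CHAC1 between e.v. and WT. Without e.v. monoculture replicate 11, edgeR called CHAC1, HERPUD1 and HSPA5 between e.v. and WT, and the share of all genes was not counted. In the fit of all libraries the differences between e.v. and WT were 1.93 ± 0.41 for CHAC1 (adjusted p 0.118), 1.26 ± 0.32 for HERPUD1 (adjusted p 0.404), 1.05 ± 0.29 for HSPA5 (adjusted p 0.535) and 1.02 ± 0.31 for EIF2AK3 (adjusted p 0.635). Genes called in e.v. and cl.21 and not in WT are therefore not shown to respond differently.

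The 4 single WT libraries from YCFAinul and YCFAmuc media had 4206769 to 5764366 counts and no replicates, and no test was made. In 5 of the 39 genes (12.8%, against 6.59% of 12954 genes with a mean of at least 1 CPM) all 4 lay above the 3 WT monoculture libraries in YCFAG, and in 0 all 4 lay below (7.74%). CHAC1 had 28.4 and 28.6 CPM in the YCFAinul and YCFAmuc monocultures and 22.3 and 12.2 CPM in the cultures labelled Poop, beside 6.18 to 9.16 CPM in YCFAG monoculture. HERPUD1 had 116, 118, 114 and 94.1 CPM in the same order, beside 49.2 to 73.3 CPM. Beside these WT libraries, the e.v. and cl.21 HoxBan libraries spanned 64.4 to 183 CPM for HERPUD1 and 8.08 to 27.8 CPM for CHAC1.

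CEBPB had 108, 118, 80.3 and 64.5 CPM, beside 49.3 to 59.2 CPM in YCFAG monoculture. EIF2AK3 had 13.9, 10.1, 14.8 and 8.21 CPM, beside 3.30 to 7.94 CPM, and MTHFD2 had 391, 347, 409 and 375 CPM, beside 293 to 323 CPM. For CHAC1, CEBPB and HERPUD1 the cultures labelled Poop lay below the monocultures of the same medium. The same held for other members, among them SESN2, PPP1R15B, SLC7A11 and TRIB3, and the reverse for others, among them MTHFD2, MANF and PDIA6. Of the genes that led the difference between monoculture and 2D, HSPA5, ATF4 and PPP1R15A stayed within the YCFAG range, HSPA5 at 1960 to 2271 CPM beside 1238 to 2570 CPM and ATF4 at 347 to 369 CPM beside 346 to 372 CPM. ATF3 was above it in the YCFAinul libraries, at 49.8 CPM in monoculture and 47.0 CPM in the culture labelled Poop beside 9.99 to 41.5 CPM. DNAJB9 was above it in 2 of the 4 libraries, with 74.5 CPM at most beside 31.6 to 68.3 CPM, and DDIT3 in 1.

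**Figure D5:**
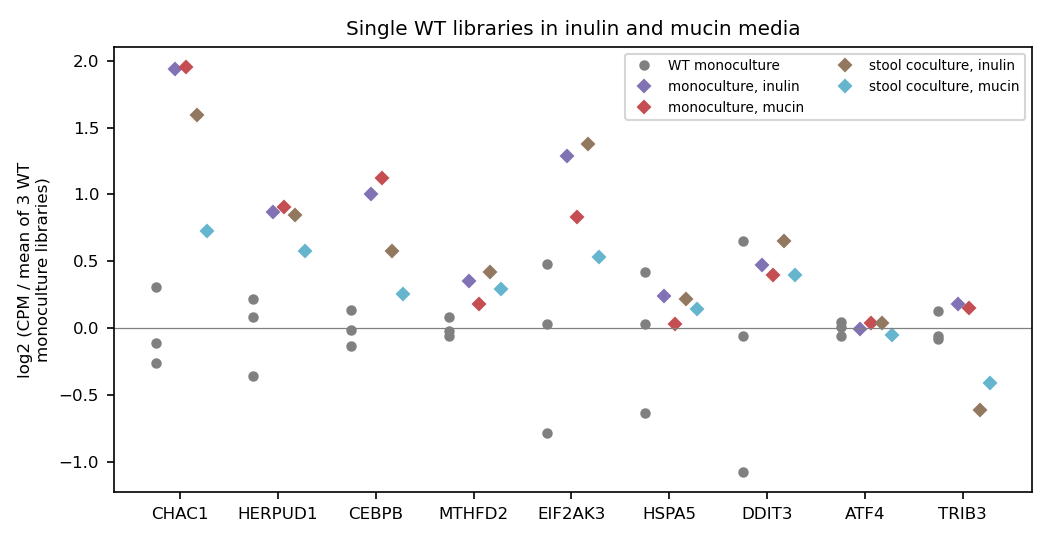
Log2 ratio of each library's CPM to the mean of the 3 WT monoculture libraries in YCFAG (y axis) for 9 genes, with grey points for those 3 libraries and coloured diamonds for the 4 single libraries labelled by medium and culture (stool stands for the label Poop). Diamonds lie above the grey points for CHAC1, HERPUD1, CEBPB, MTHFD2 and EIF2AK3 and among them for HSPA5 and ATF4.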

How the data were processed

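RNA of Caco-2 cells was sequenced as 32 QuantSeq 3′ mRNA libraries on an Illumina NextSeq500. The authors deposited 1 table of raw read counts per Ensembl gene, with GRCh38 as the build per the labels. Which aligner, counter, annotation and strand setting were used is not given in the sources used here. Libraries were grouped by their labels. Counts are of 3′ ends, so levels are compared within a gene only. Rows without a gene symbol held 0.0679% of counts and stayed in the library sizes.

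Genes were kept by filterByExpr (minimum count 10), scaled with TMM factors and tested with edgeR 4.0.16 (quasi-likelihood, R 4.3.3) in 1 fit of the 28 replicated libraries with 9 group means and 19 residual degrees of freedom. P-values were adjusted over all 12849 genes by Benjamini-Hochberg and called under 0.05. Log2 fold changes carry standard errors, and CPM uses TMM-scaled library sizes. The common biological coefficient of variation was 0.201. The code was tested on simulated counts for 11739 genes in the comparison of e.v. monoculture with 2D, where it recovered 54% of 2-fold and 100% of 4-fold increases, and 48% and 90% of decreases of the same size. In the simulation all genes had the same spread, and far fewer genes were changed than were called in the data. Its shares are therefore a check of the code and not the power of the real comparisons. Replicate libraries differed by more than sampling noise in every group.

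Alternatives were DESeq2 1.42.0 and its size factors, upper-quartile factors, no filter, the mitochondrial share as a covariate, each comparison fitted on its own groups, and each library left out in turn. The mean over lines of monoculture against 2D, 4 interactions involving WT, and the fit without 1 high-mitochondrial 2D library per line were added after seeing the data. The genes and lists were chosen with earlier results of these data known. Every gene is accounted for by role. Up to 3 called genes of a role and comparison and genes called in at least 2 lines are given in numbers. So are the sensors, ATF4, DDIT3, HSPA5, ASNS and TRIB3. The numbers are values per library, ranges or log2 fold changes alone. Of the wider lists, up to the few genes with the smallest adjusted p are named. Gene coordinates are from GENCODE v29 and promoters from RefSeq.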

Additional observations from a re-analysis of the deposited data

Results flagged for a closer look

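In WT cells in 2D, PPP1R15A was at 35.4 CPM in replicate 5 and at 16.9 to 19.1 CPM in the other 3 libraries. The gap took 0.883 of the range of the 4 values, above the 95% limit of Dixon's test for 4 values. It was the 1 of 39 genes so marked in this group, and chance marks about 1 in 20.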

How the results depend on the processing

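Settings are compared for the counts of genes called and for each named gene. The share of all genes called was not counted under these settings, apart from some comparisons with the mitochondrial share in the fit. The counts of genes higher and lower in monoculture than in 2D stayed within 1.5 times of the reported ones in each line under every setting. Changing the scaling reversed no named gene. Coculture calls moved most: with the mitochondrial share in the fit 4 genes were higher, 5 lower, and 1 (ERN1) lower in cl.21 alone, with DESeq2 4 were higher, without the filter 7 were lower, and with the 6 HoxBan groups alone 0 were called either way. Without the filter, 3 genes were higher in cl.21 than in e.v. in 2D (0 without the 3 high-mitochondrial 2D libraries), PHGDH was not lower in e.v. than in WT (0, also with DESeq2 size factors or the groups alone), and the interaction with WT gave 1 gene (HERPUD1) for the monoculture response of e.v. and of cl.21, and 3 and 1 for HoxBan as a whole (1 with DESeq2 for e.v.). With the groups alone, DNAJC3 was called in cl.21 against WT in 2D (1) and not against e.v. in HoxBan (0). The causes were not tested.

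Leaving out 1 library in turn gave 6 to 9 genes higher in WT, 12 to 16 in e.v. and 10 to 16 in cl.21 for monoculture against 2D, 0 to 5 higher and 0 to 4 lower in coculture, 0 to 1 for cl.21 against e.v. in 2D and likewise in HoxBan, 5 to 10 higher and 0 to 1 lower for e.v. against WT in HoxBan, and 0 to 3 for the e.v. interaction over HoxBan. Of the named genes, log2 fold changes that were not called changed sign for XBP1 (-0.15 to 0.083) and ASNS (-0.23 to 0.58) in WT monoculture, ATF6 in e.v. (-0.0050 to 0.18), EIF2AK3 (-0.13 to 0.17) and ASNS (-0.23 to 0.19) in coculture, and ASNS over the mean of the lines (-0.0015 to 0.27). No paired analysis was possible because no replicate number is shared between libraries. At this depth, genes of few counts such as NUPR1 and VLDLR-AS1 could not be tested. In the simulated data many 2-fold changes were missed with 3 libraries a group. The share missed in the real comparisons may differ, because fewer genes were changed in the simulation and all had the same spread.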
